A study of Homo sapiens with 12 samples.

Results

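The genes described here are 7 sensors and transcription factors of the unfolded protein response and of related signalling from the endoplasmic reticulum (ER) membrane: ERN1, XBP1, ATF6, ATF6B, CREB3, CREB3L2 and NFE2L1. They were taken by gene symbol from a deposited table of 61466 genes, in which each symbol named a single row. RNA sequencing had been run on 2 established human lymphoma lines, Farage and SU-DHL-8, both labelled as wild-type diffuse large B cell lymphoma from lymph node. The 4 groups were Farage cells given morusinol, Farage control cells, SU-DHL-8 cells given morusinol and SU-DHL-8 control cells, each for 12 h and each with 3 libraries. Morusinol is a prenylated flavonoid of the mulberry genus, and the series' design text calls the control treatment vehicle. The dose and the kind of vehicle are not stated in the labels. Nothing there says whether the 3 libraries of a group came from separate cultures, so every p-value measures the spread between libraries, which may be technical.

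The unfolded protein response is set off when misfolded proteins build up in the ER, and it is also part of normal life in the B lineage, where plasma cells secrete antibody in bulk. ERN1 encodes IRE1alpha, a kinase and endoribonuclease of the ER membrane that cuts a short intron out of XBP1 mRNA in the cytoplasm; the spliced mRNA encodes the active transcription factor. ATF6 and ATF6B are membrane-bound transcription factors that travel to the Golgi and are released by the proteases MBTPS1 and MBTPS2. CREB3 and CREB3L2 are built and released in the same way and are known for genes of vesicle transport and secretion. NFE2L1 is also held in the ER membrane; once extracted and cut, it is known to raise proteasome subunit genes when the proteasome is blocked. Another sensor, PERK (EIF2AK3), acts by phosphorylating eIF2alpha and so favours translation of ATF4.

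Splicing and proteolysis act after these RNAs are made, and a table of gene totals holds neither. The XBP1 intron is shown because it separates the inactive from the active message. In GENCODE release 29 it lies at chr22:28796127-28796152 on the minus strand of GRCh38, inside an exon, is 26 bases long, and is missing from 2 of the 7 annotated XBP1 transcripts. It is in capitals here, with 20 bases on each side.

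XBP1 intron: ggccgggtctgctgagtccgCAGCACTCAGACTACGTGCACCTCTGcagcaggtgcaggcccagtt

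The table has a single XBP1 row, so the XBP1 values below do not separate spliced from unspliced mRNA.

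The start-site windows of 3 members are shown because these genes had the largest fold changes or differed most between the lines, and because known stress elements could be looked for in them. RefSeq windows on GRCh38.p14, from 250 bases before the start site to 50 after it, were at hand for all 7 genes, with 10 windows in all. Capitals mark matches to a searched motif on either strand. XBP1 is at chr22:28800520-28800819, CREB3L2 at chr7:138002037-138002336 and ERN1 at chr17:64130095-64130394, all on the minus strand and written 5′ to 3′ in the direction of the gene.

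XBP1 window: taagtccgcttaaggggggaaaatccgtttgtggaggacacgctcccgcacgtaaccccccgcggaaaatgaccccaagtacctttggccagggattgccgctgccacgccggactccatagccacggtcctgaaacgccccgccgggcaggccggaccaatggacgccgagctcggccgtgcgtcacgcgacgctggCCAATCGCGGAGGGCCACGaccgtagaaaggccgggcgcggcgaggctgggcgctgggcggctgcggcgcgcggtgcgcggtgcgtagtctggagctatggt
CREB3L2 window: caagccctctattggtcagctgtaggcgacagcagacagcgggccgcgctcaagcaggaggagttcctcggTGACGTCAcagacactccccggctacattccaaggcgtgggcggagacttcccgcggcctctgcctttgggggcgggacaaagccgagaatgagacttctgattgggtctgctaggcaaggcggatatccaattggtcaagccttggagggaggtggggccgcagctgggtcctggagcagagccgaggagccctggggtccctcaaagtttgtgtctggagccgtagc
ERN1 window: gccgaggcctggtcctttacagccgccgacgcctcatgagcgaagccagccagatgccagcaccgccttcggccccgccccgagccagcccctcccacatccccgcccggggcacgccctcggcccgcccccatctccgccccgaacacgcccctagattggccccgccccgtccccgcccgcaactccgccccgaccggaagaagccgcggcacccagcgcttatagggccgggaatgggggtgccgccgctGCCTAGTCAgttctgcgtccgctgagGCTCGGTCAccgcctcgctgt

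In the XBP1 window the capitals are the ER stress response element, searched as CCAAT and CCACG with any 9 bases between them, and the match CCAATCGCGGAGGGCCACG begins 52 bases before the start site. That element was found in 0.0769% of the 35116 RefSeq windows, and in no other member window. The capitals in the CREB3L2 window are a cyclic AMP response element, TGACGTCA, which 1.85% of windows held. The ERN1 window held the antioxidant response element core TGACNNNGC 2 times, as its reverse complement, and 13.3% of windows held it at least once. The amino acid response element TGATGNAA (3.62% of windows) matched the second CREB3L2 window only. The core of the unfolded protein response element, TGACGTG (1.97% of windows), and the second ER stress element, ATTGG and CCACG with any 1 base between them (0.0541%), matched no member window. The members not shown, ATF6, ATF6B, CREB3 and NFE2L1, had no match to any of the searched motifs. A match describes these letters and does not show that a factor binds there.

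The values were FPKM, a fragment count divided by gene length and by sequencing depth, which can be compared between genes of different length. A log2 fold change below is a difference of mean log2(FPKM + 1), which understates the change of low genes, and a gene is said to rise or fall where limma's test, two-sided and adjusted over all tested genes by Benjamini-Hochberg, gave an adjusted p under 0.05. Of the 61466 genes, 17574 reached 1 FPKM in at least 3 libraries and were tested, among them all 7 members. ERN1 passed that filter only through the morusinol groups and CREB3L2 only through Farage; the other 5 passed in every group. Library depth, estimated from the steps between low values, was 9.36 to 12.7 M fragments in Farage morusinol libraries against 16.6 to 19.0 M in Farage controls. In SU-DHL-8 it was 6.06 to 14.98 M with morusinol and 14.2 to 15.2 M in controls. Libraries of a group correlated at 0.964 to 0.980 over log2 values, libraries of the same line with the other treatment at 0.922 to 0.937, and libraries of different lines at 0.726 to 0.796. The B lymphocyte markers MS4A1, CD79A, CD79B, PAX5 and CD22 summed to 569 to 612 FPKM in Farage with morusinol against 892 to 943 in Farage controls, and to 192 to 196 FPKM in SU-DHL-8 with morusinol against 304 to 318 in SU-DHL-8 controls; none of these 5 was at 0 in all 3 libraries of a group. In Farage 4 of the 5 fell, led by MS4A1 (92.9 FPKM with morusinol against 356 in controls), and CD79A did not pass (376 against 391 FPKM). In SU-DHL-8, CD79A (43.0 against 175 FPKM), MS4A1 and CD22 fell, while CD79B and PAX5 rose. The part of these markers in the values below was not tested. Summed markers of T and natural killer cells reached at most 6.07 FPKM in any library, those of myeloid cells 1.80 FPKM, and those of fibroblasts, endothelium and epithelium 2.18 FPKM.

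With morusinol, all 7 genes rose in Farage, where 21.9% of tested genes rose and 43.1% changed in either direction. In SU-DHL-8, 6 of the 7 rose, where 25.1% of tested genes rose and 46.8% changed; CREB3L2 was the exception. In each of these 13 called comparisons the lowest morusinol library lay above the highest control library. How often the same held over all called genes was not counted, so this only describes the values. The ratio of mean FPKM ran from 1.21 (ATF6) to 6.18 (XBP1) in Farage, and from 1.30 (ATF6) to 14.04 (ERN1) in SU-DHL-8. As these are bulk libraries, more RNA per cell and more cells that carry it cannot be told apart.

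**Figure D1:**
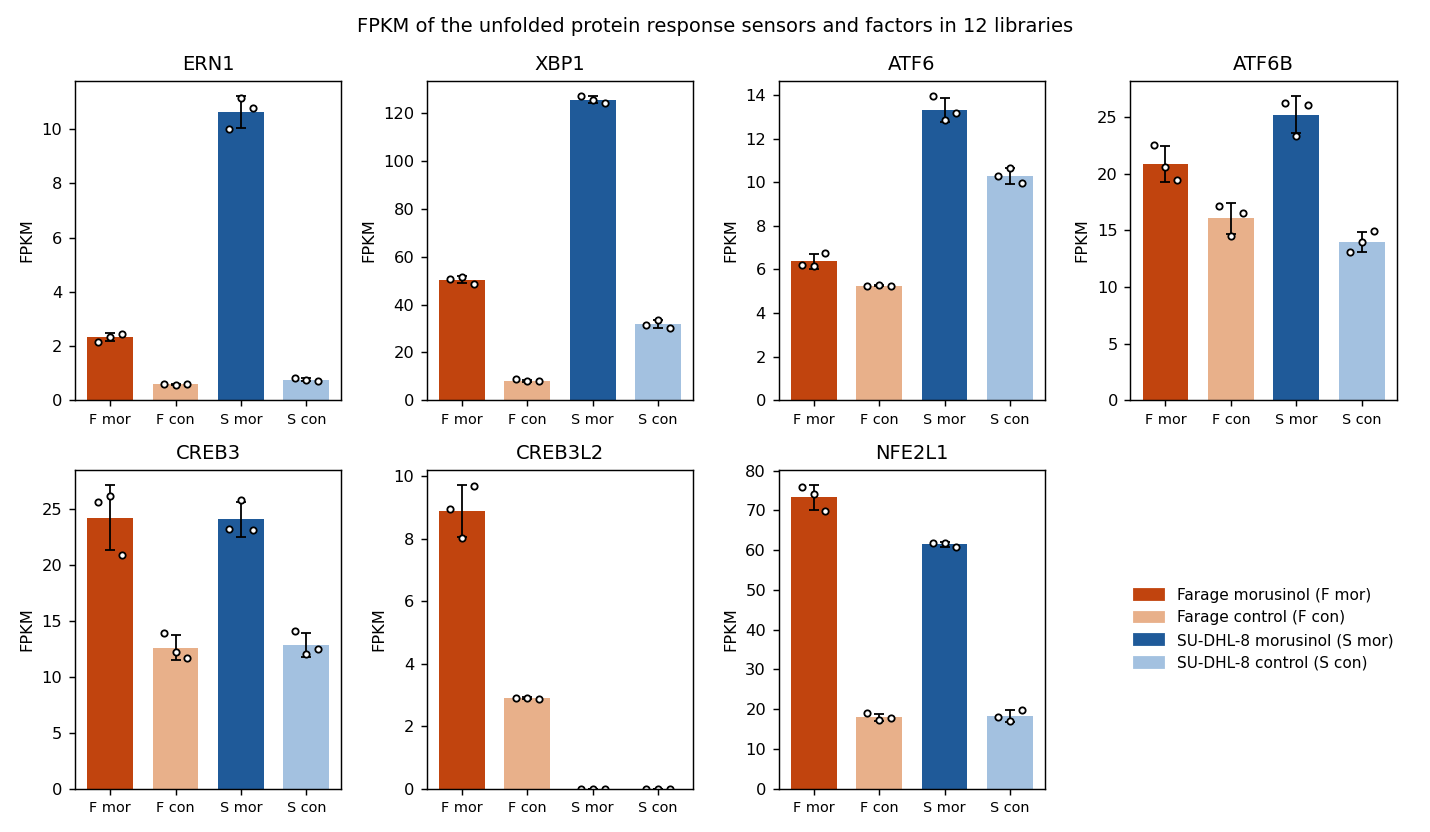
Each panel is 1 gene; bars are the mean FPKM of 3 libraries on an axis that starts at 0, error bars are 1 SD and circles are single libraries. Morusinol bars stand above the control bars of the same line in every panel except for CREB3L2 in SU-DHL-8, where the gene was at or near 0; ERN1 and XBP1 were highest in SU-DHL-8 with morusinol.

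ERN1, the IRE1alpha sensor, was the lowest member in Farage and, with CREB3L2 aside, also in SU-DHL-8. In Farage it measured 2.16, 2.33 and 2.46 FPKM in the morusinol libraries, against 0.599, 0.562 and 0.601 FPKM in control libraries. All 3 morusinol libraries were above all 3 controls, and the means were 2.31 ± 0.15 and 0.587 ± 0.022 FPKM (SD, n = 3 each). The ratio of means was 3.94, and the log2 fold change was 1.06 ± 0.067 (SE; limma adjusted p = 6.28e-07).

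SU-DHL-8 gave a much larger ERN1 difference. The morusinol libraries held 10.001, 11.1 and 10.8 FPKM, against 0.821, 0.735 and 0.717 FPKM in controls. No control library came near a morusinol library, with means of 10.6 ± 0.58 and 0.758 ± 0.056 FPKM (SD, n = 3 each) and a ratio of 14.04. The log2 fold change of 2.73 ± 0.067 (SE; limma adjusted p = 7.13e-10) placed ERN1 24th among all tested genes that were higher in SU-DHL-8. About 109 to 136 fragments stood behind each control value, and about 237 to 1754 behind each morusinol value, over both lines.

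XBP1, the factor whose mRNA IRE1alpha splices, had the largest member response in Farage. Its morusinol libraries measured 50.8, 51.4 and 48.7 FPKM, against 8.63, 7.99 and 7.81 FPKM in controls. The groups were far apart, at 50.3 ± 1.4 and 8.14 ± 0.43 FPKM (SD, n = 3 each), a ratio of 6.18. With a log2 fold change of 2.49 ± 0.045 (SE; limma adjusted p = 1.47e-10), XBP1 ranked 23rd among the genes higher in Farage with morusinol.

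In SU-DHL-8, XBP1 measured 127, 126 and 124 FPKM with morusinol, against 31.6, 33.5 and 30.3 FPKM in controls. Here too no values overlapped; the ratio of means was 3.95 and the log2 fold change 1.95 ± 0.045 (SE; limma adjusted p = 5.31e-10). The highest XBP1 library in Farage with morusinol was therefore at 51.4 FPKM, above every SU-DHL-8 control but below every SU-DHL-8 morusinol library. Since XBP1 is also a plasma cell factor, the plasma cell markers SDC1, PRDM1, JCHAIN and TNFRSF17 were summed: 4.94 to 5.78 FPKM in Farage with morusinol against 25.0 to 27.8 in its controls, and 7.99 to 10.3 FPKM in SU-DHL-8 with morusinol against 3.77 to 4.27 in its controls. None of these 4 was at 0 in all 3 libraries of a group. With morusinol the sum was lower in Farage and higher in SU-DHL-8, while XBP1 was higher in both lines. The part of plasma cell genes in the XBP1 values was not tested.

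ATF6, the Golgi-activated sensor, had the smallest called responses. Farage morusinol libraries held 6.19, 6.17 and 6.75 FPKM, against 5.24, 5.29 and 5.26 FPKM in controls. Although the groups did not overlap, the lowest morusinol library was less than 1 FPKM above the highest control; the ratio was 1.21 and the log2 fold change 0.23 ± 0.046 (SE; limma adjusted p = 0.00183). SU-DHL-8 libraries held 13.96, 12.9 and 13.2 FPKM with morusinol, against 10.3, 10.7 and 9.95 FPKM in controls. They did not overlap either, with a log2 fold change of 0.34 ± 0.046 (SE; limma adjusted p = 0.000107).

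ATF6B, the paralog of ATF6, had the larger fold change in SU-DHL-8. In SU-DHL-8 it measured 26.3, 23.3 and 26.0 FPKM with morusinol, against 13.1, 13.96 and 14.9 FPKM in controls, a ratio of 1.80 with no overlap (log2 fold change 0.81 ± 0.077, SE; limma adjusted p = 9.78e-06). In Farage the morusinol libraries held 22.6, 20.6 and 19.5 FPKM, against 17.1, 14.5 and 16.6 FPKM in controls. The spread within each Farage group, 1.57 and 1.37 FPKM (SD), was smaller than the difference of the means, and the log2 fold change was 0.36 ± 0.077 (SE; limma adjusted p = 0.00341). ATF6B shares 71 exon bases with TNXB on the same strand, which reached at most 0.233 FPKM.

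CREB3, a Golgi-cleaved factor named for the cyclic AMP element it binds, rose by about the same factor in both lines. Farage libraries measured 25.7, 26.2 and 20.9 FPKM with morusinol, against 13.9, 12.3 and 11.7 FPKM in controls; SU-DHL-8 libraries measured 23.3, 25.9 and 23.1 FPKM with morusinol, against 14.1, 12.1 and 12.5 FPKM in controls. The third Farage morusinol library was the lowest of the 6 treated ones and still above every control. The log2 fold changes were 0.89 ± 0.095 in Farage (SE; limma adjusted p = 3.09e-05) and 0.86 ± 0.095 in SU-DHL-8 (SE; limma adjusted p = 3.05e-05). CREB3 shares 61 exon bases with TLN1 and 139 with GBA2, both on the opposite strand, and no label says whether counting used strand; TLN1 reached 47.7 FPKM and GBA2 11.1 FPKM, and their part in the CREB3 values was not tested.

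CREB3L2, the CREB3 relative known in secretory cells for COPII vesicle genes, was detected in Farage. There it measured 8.95, 8.02 and 9.69 FPKM with morusinol, against 2.91, 2.91 and 2.86 FPKM in controls. The 2 groups were apart by more than 5 FPKM, with a ratio of 3.07 and a log2 fold change of 1.34 ± 0.080 (SE; limma adjusted p = 4.38e-07). In SU-DHL-8 the gene was listed at 0 in all 3 morusinol libraries and in 2 of the 3 controls; the other control was at 0.0075 FPKM, about 1 fragment. No change could be measured there, and no fold is given for the difference between the lines.

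NFE2L1, the ER-held factor of proteasome genes, was the highest member in Farage with morusinol. Its values were 75.9, 74.1 and 69.9 FPKM with morusinol, against 18.9, 17.2 and 17.7 FPKM in controls. The ratio of these non-overlapping groups was 4.08 and the log2 fold change 1.97 ± 0.057 (SE; limma adjusted p = 3.71e-09). In SU-DHL-8 it measured 61.8, 61.8 and 60.8 FPKM with morusinol, against 18.1, 17.0 and 19.9 FPKM in controls, a ratio of 3.36 and a log2 fold change of 1.70 ± 0.057 (SE; limma adjusted p = 5.47e-09). NFE2L1 also shares 192 exon bases with an antisense gene, AC004477.2, that was listed at 0 in every library.

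The question whether the lines answered differently was put to the difference of their log2 fold changes, Farage minus SU-DHL-8. It passed for 5 of the 7 genes, where 34.9% of tested genes passed, 17.3% with a higher response in Farage and 17.6% with a lower one. ERN1 rose less in Farage, by -1.67 ± 0.094 (SE; 95% interval -1.87 to -1.46; limma adjusted p = 8.4e-07), and so did ATF6B, by -0.45 ± 0.11 (SE; limma adjusted p = 0.00968). XBP1 rose more in Farage, by 0.54 ± 0.064 (SE; limma adjusted p = 0.000122), as did NFE2L1, by 0.28 ± 0.081 (SE; limma adjusted p = 0.0228). CREB3L2 is counted among the 5, but it passed the filter only through Farage. Its value of 1.34 ± 0.11 (SE) is its Farage response, since SU-DHL-8 had almost no reads. On the log2 scale the sensor and its substrate thus differed between the lines in opposite directions: ERN1 rose less in Farage and XBP1 more. The XBP1 level was nevertheless lower in Farage than in SU-DHL-8, both in controls and with morusinol.

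For the other 2 genes no difference between the lines passed. The ATF6 difference was -0.11 (95% interval -0.25 to 0.03; limma adjusted p = 0.225) and the CREB3 difference 0.03 (95% interval -0.27 to 0.33; limma adjusted p = 0.889). The intervals leave room for differences of those sizes. The ATF6B call was lost when values were rescaled to TPM (-0.34, adjusted p = 0.0976) or by median-of-ratios factors (-0.34, adjusted p = 0.054), and the NFE2L1 call was lost with no filter on low values (adjusted p = 0.0535), without Farage morusinol replicate 1 (0.25, adjusted p = 0.0534) and without Farage control replicate 2 (0.25, adjusted p = 0.0538).

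**Figure D2:**
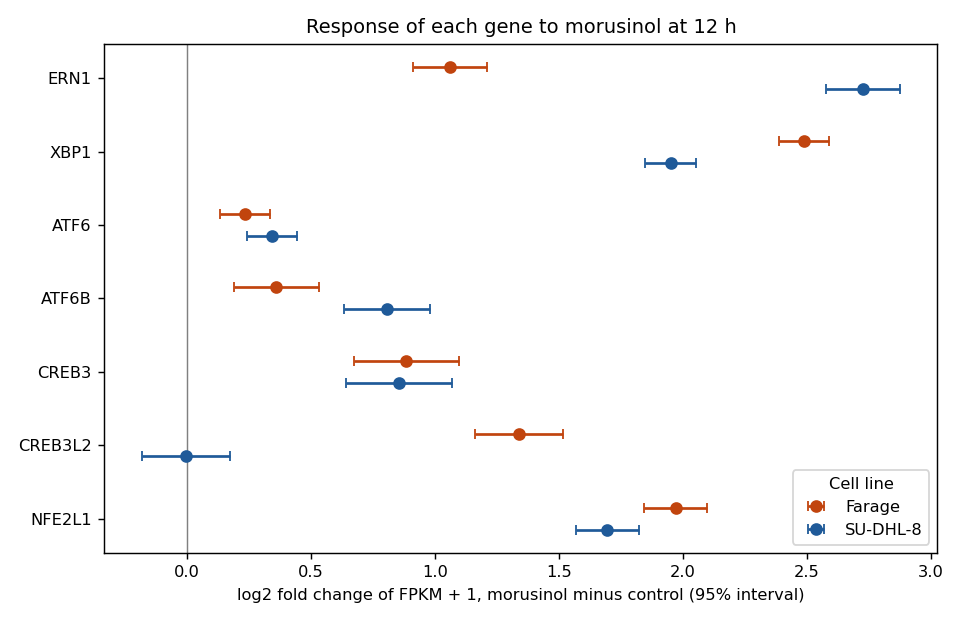
Points are log2 fold changes of FPKM + 1, morusinol minus control, for the 7 genes in Farage and in SU-DHL-8, with 95% intervals as bars. ERN1 sits at 1.06 in Farage and 2.73 in SU-DHL-8, while XBP1 sits at 2.49 in Farage and 1.95 in SU-DHL-8.

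Control cells of the lines differed in some of the genes. Between the control groups, 3 of the 7 genes differed, where 64.1% of tested genes did (34.5% higher in Farage, 29.6% lower). XBP1 was lower in Farage controls than in SU-DHL-8 controls (8.14 ± 0.43 against 31.8 ± 1.6 FPKM; SD, n = 3 each; log2 difference -1.84, limma adjusted p = 7.74e-11), and so was ATF6 (5.26 ± 0.023 against 10.3 ± 0.36 FPKM; log2 difference -0.85, limma adjusted p = 3.57e-08). CREB3L2, counted among the 3, was higher in Farage controls, but it passed the filter only through Farage. NFE2L1 controls averaged 18.0 ± 0.89 FPKM in Farage and 18.3 ± 1.5 FPKM in SU-DHL-8, and CREB3 controls 12.6 ± 1.2 and 12.9 ± 1.1 FPKM; in both genes the libraries of the 2 lines overlapped. ERN1 controls did not overlap, at 0.587 FPKM in Farage and 0.758 FPKM in SU-DHL-8, yet the test did not pass (log2 difference -0.15, limma adjusted p = 0.0772); it passed with log2(FPKM + 0.1) (-0.32, adjusted p = 0.0178). ATF6B controls, at 16.1 ± 1.4 FPKM in Farage and 13.99 ± 0.90 FPKM in SU-DHL-8, overlapped and did not pass (adjusted p = 0.0571), but passed under 8 of 21 alternative settings. The replicate block, which compares the lines at replicate 1 rather than by group means, is among the 8.

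Among treated cells 6 of the 7 genes differed between the lines, where 65.1% of tested genes did (33.0% higher in Farage, 32.1% lower). The 6 include CREB3L2, which passed the filter only through Farage. CREB3L2 and NFE2L1 were higher in Farage with morusinol, NFE2L1 by 73.3 ± 3.1 against 61.5 ± 0.60 FPKM in SU-DHL-8 with morusinol (log2 difference 0.25, limma adjusted p = 0.00268). ERN1, XBP1, ATF6 and ATF6B were lower in Farage. The log2 differences were -1.81 for ERN1 (limma adjusted p = 1.53e-09), -1.30 for XBP1 (adjusted p = 1.04e-09) and -0.96 for ATF6 (adjusted p = 1.22e-08). The ATF6B difference of -0.26 (adjusted p = 0.0122) did not pass after rescaling to TPM (-0.05, adjusted p = 0.673) or by median-of-ratios factors (-0.21, adjusted p = 0.0542). With the replicate number as a block within each line it was -0.15 (adjusted p = 0.254). That fit compares the lines at replicate 1 rather than by group means, so it is not the same difference. CREB3 averaged 24.2 ± 2.9 FPKM in Farage and 24.1 ± 1.5 FPKM in SU-DHL-8, with overlapping libraries (adjusted p = 0.977).

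Read as levels, the order of the members differed by line. In Farage with morusinol it ran NFE2L1, XBP1, CREB3, ATF6B, CREB3L2, ATF6 and ERN1, with overlapping libraries between CREB3 and ATF6B. In SU-DHL-8 with morusinol XBP1 came first at 126 ± 1.5 FPKM, then NFE2L1, followed by ATF6B and CREB3, whose libraries overlapped, then ATF6 at 13.3 ± 0.55, ERN1 at 10.6 ± 0.58 and CREB3L2. No test was run between genes.

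The PERK arm, a branch outside the member set, was measured alongside through 7 genes. In each line 6 of the 7 rose and none fell, where 21.9% of all tested genes rose in Farage and 25.1% in SU-DHL-8. The median log2 fold change was 1.38 in Farage and 1.43 in SU-DHL-8, against -0.03 and 0.02 over all tested genes. EIF2AK3, which encodes PERK, averaged 8.47 ± 0.17 FPKM with morusinol in Farage, against 2.37 ± 0.083 in controls, and 8.72 ± 0.078 FPKM in SU-DHL-8 with morusinol, against 2.25 ± 0.099 in controls (SD, n = 3 each). DDIT3, the factor CHOP made downstream of ATF4, had the largest change of the list in Farage, at 56.7 ± 3.3 FPKM with morusinol against 5.62 ± 0.70 in controls. PPP1R15A, which directs dephosphorylation of eIF2alpha, had the largest in SU-DHL-8, at 154 ± 6.9 FPKM with morusinol against 14.1 ± 1.7 in controls. NCK1 did not pass in either line. Farage rose more than SU-DHL-8 in ATF4, DDIT3 and PPP1R15B and less in PPP1R15A and DNAJC3 (limma adjusted p between 1.09e-05 and 0.00649 for these 5).

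Genes that work with IRE1alpha moved in both directions. Of 11 tested, 5 rose and 3 fell in Farage, and 5 rose and 5 fell in SU-DHL-8; over all tested genes 21.9% rose and 21.2% fell in Farage, and 25.1% rose and 21.6% fell in SU-DHL-8. The Farage count of 5 that rose was 3 without Farage morusinol replicate 3 and 3 without Farage control replicate 1. TMBIM6, an ER membrane protein that restrains IRE1alpha, had the largest rise of the list in both lines, at 153 ± 3.1 FPKM with morusinol against 70.6 ± 3.6 in controls in Farage, and 209 ± 7.3 FPKM against 104 ± 3.6 in SU-DHL-8. SYVN1, a ubiquitin ligase of the ER, rose by 0.38 in Farage and 0.95 in SU-DHL-8 on the log2 scale. RTCB, the ligase that joins the cut XBP1 mRNA, fell by 0.58 in SU-DHL-8 (limma adjusted p = 4.1e-05), at 29.5 ± 1.4 FPKM with morusinol against 44.5 ± 1.3 in controls; in Farage it measured 37.4 ± 1.6 and 37.3 ± 3.7 FPKM (adjusted p = 0.958). DDX1, a partner of RTCB, fell in both lines, and TRAF2, which links IRE1alpha to JNK signalling, fell in both.

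Of 24 genes listed as XBP1 targets, 20 rose and 1 fell in Farage (19 and 2 without Farage morusinol replicate 3). All 24 rose in SU-DHL-8. Over all tested genes 21.9% rose and 21.2% fell in Farage, and 25.1% rose in SU-DHL-8. The median log2 fold change was 0.45 in Farage and 0.999 in SU-DHL-8, against -0.03 and 0.02 over all tested genes. DNAJB9, a co-chaperone of the ER lumen, averaged 33.8 ± 1.7 FPKM with morusinol in Farage against 6.399 ± 1.2 in controls, and 58.8 ± 2.4 FPKM in SU-DHL-8 with morusinol against 7.51 ± 1.4 in controls. EDEM1, which hands misfolded glycoproteins over for degradation, measured 89.0 ± 0.91 FPKM with morusinol in Farage against 39.9 ± 1.3, and 140 ± 4.0 FPKM in SU-DHL-8 with morusinol against 42.3 ± 0.79. SEC61B, a subunit of the translocation channel, fell in Farage, at 120 ± 5.1 FPKM with morusinol against 218 ± 14 in controls, and rose in SU-DHL-8, at 74.3 ± 6.2 against 55.5 ± 3.9; it is named after its values were seen.

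The log2 fold change was lower in Farage than in SU-DHL-8 for 23 of these 24 genes and higher for none, where 17.6% of all tested genes had a lower response in Farage. With the 3 other scalings the count was between 18 and 22. Among the 23, DNAJB9 lost its call under 12 alternatives (limma adjusted p between 0.0524 and 0.135) and SRP19 under 13 (0.0524 to 0.229). ERLEC1 lost its call under 3, and LMAN1 and SEC31A under 1 each. On the log2 scale the lower response in Farage is the direction of ERN1 and the opposite of XBP1, whose fold change was larger in Farage. In FPKM, XBP1 was lower in Farage than in SU-DHL-8, in controls (8.14 against 31.8) and with morusinol (50.3 against 126). The part of either gene in these values was not tested. PLPP5, a lipid phosphatase, showed the widest gap of the 4 named targets: a log2 fold change of 0.50 in Farage and 2.46 in SU-DHL-8 (difference -1.97, limma adjusted p = 1.18e-05). SEC24D, a COPII coat protein, rose by 1.004 in Farage and 2.29 in SU-DHL-8 on the same scale (difference -1.28, adjusted p = 7.5e-07).

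All 13 tested genes of the ATF6 target list rose in both lines. Over all tested genes 21.9% rose in Farage and 25.1% in SU-DHL-8. The median log2 fold change of the list was 0.99 in Farage and 1.6 in SU-DHL-8. HSPA5, the chief chaperone of the ER lumen, averaged 283 ± 4.1 FPKM with morusinol in Farage against 112 ± 5.1 in controls, and 375 ± 1.5 FPKM in SU-DHL-8 with morusinol against 73.0 ± 1.1 in controls. HERPUD1, a scaffold of ER-associated degradation, averaged 268 ± 3.9 against 94.98 ± 1.8 FPKM in Farage and 58.7 ± 1.0 against 11 ± 0.15 FPKM in SU-DHL-8. HYOU1, a chaperone, had the largest difference in SU-DHL-8 (log2 fold change 2.74) and SEL1L, the partner of SYVN1, the largest in Farage (1.59). The response was lower in Farage for 10 of the 13 genes, where 17.6% of all tested genes had a lower response in Farage. Among the 10, OS9 lost its call under 15 alternatives (limma adjusted p between 0.0549 and 0.28). The log2 fold change of ATF6 itself, 0.23 in Farage and 0.34 in SU-DHL-8, was below that of each of the 13.

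A list of 10 genes covered proteases, receptors and other proteins of the route between ER and Golgi that releases ATF6 and the CREB3 factors, with SREBF1 and SREBF2, which are released by the same proteases. Of their RNAs 7 rose and none fell in each line, where 21.9% of all tested genes rose in Farage and 25.1% in SU-DHL-8. In SU-DHL-8, 1 fell after rescaling to TPM and 1 by median-of-ratios factors. MBTPS2, the second protease, rose by 0.39 in Farage and 0.67 in SU-DHL-8 on the log2 scale, and SREBF1 by 0.52 and 0.97. MBTPS1, the first protease, gave 0.12 in Farage (limma adjusted p = 0.0384, a call lost under 13 of 21 alternatives, with adjusted p between 0.0506 and 0.128) and 0.04 in SU-DHL-8 (adjusted p = 0.451). PDIA5, a disulfide isomerase known to act on ATF6, averaged 5.97 ± 0.87 FPKM in SU-DHL-8 with morusinol against 2.12 ± 0.031 in controls (adjusted p = 1.01e-05); in Farage it was 0.43 ± 0.16 FPKM with morusinol and 0.278 ± 0.041 FPKM in controls, and did not pass. Of the listed targets of CREB3L2 and CREB3, 6 of 8 rose in Farage. In SU-DHL-8, where CREB3L2 was at or near 0, 7 of 8 rose. The shares of all tested genes that rose were 21.9% and 25.1%. The SU-DHL-8 count includes TGOLN2, whose call was lost under 10 alternatives (limma adjusted p between 0.0525 and 0.598). SEC31A of this list is also listed as an XBP1 target.

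The remaining CREB3 relatives behaved unlike each other. CREB3L1 was expressed in Farage, at 4.66 ± 0.28 FPKM with morusinol against 7.69 ± 0.26 in controls, so it fell there (log2 fold change -0.62, limma adjusted p = 6.12e-05) while CREB3L2 rose; in SU-DHL-8 it stayed near 0.05 FPKM. CREB3L4 rose in both lines, at 3.64 ± 0.13 against 2.11 ± 0.11 FPKM in Farage and 8.11 ± 0.99 against 2.88 ± 0.49 FPKM in SU-DHL-8. CREB3L3 was under the filter.

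**Figure D3:**
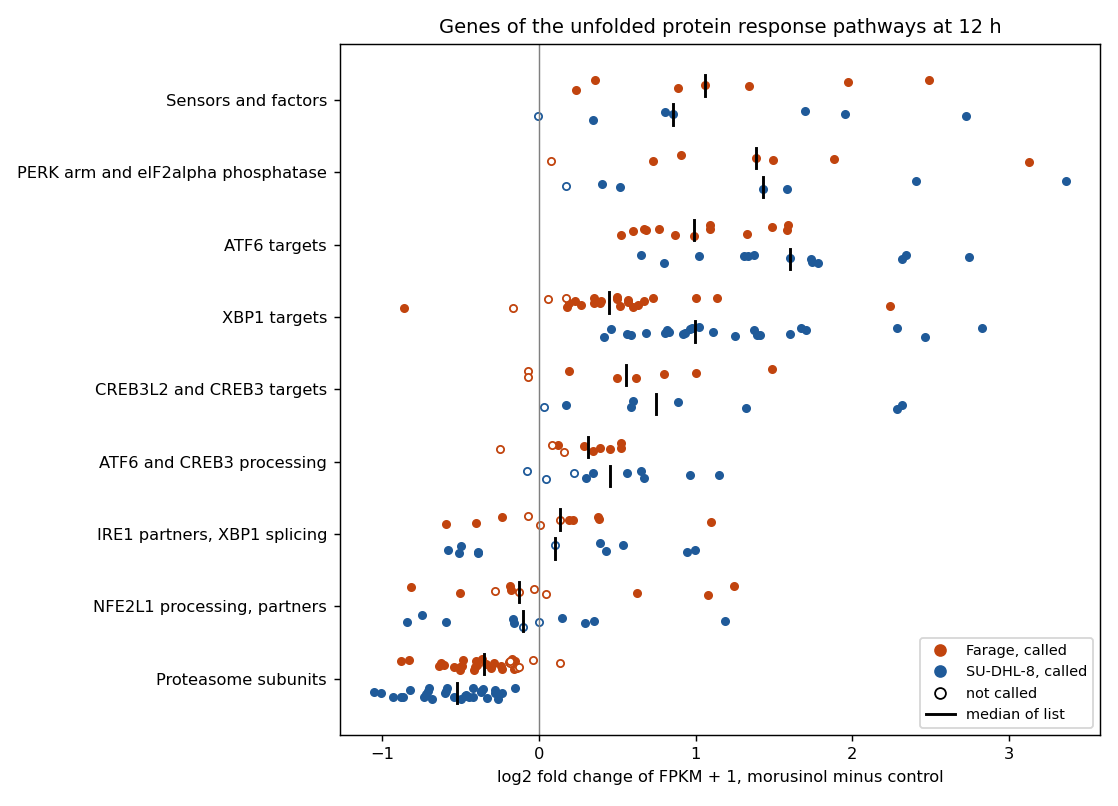
Each circle is a tested gene, placed by its log2 fold change of FPKM + 1, morusinol minus control, with Farage above SU-DHL-8 in each list; filled circles passed the test and black bars are list medians. The medians of XBP1 targets (0.45 in Farage, 0.999 in SU-DHL-8) and ATF6 targets (0.99 and 1.6) lie right of 0, and those of proteasome subunits (-0.35 and -0.52) lie left of it.

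NFE2L1 rose while the genes it is best known for did not. Of 30 tested proteasome subunits, 24 fell and none rose in Farage, where 21.2% of all tested genes fell, and all 30 fell in SU-DHL-8, where 21.6% fell. The median log2 fold change was -0.35 in Farage and -0.52 in SU-DHL-8. PSMB3 averaged 89.75 ± 8.4 FPKM with morusinol in Farage against 166 ± 12 in controls, and 85.3 ± 2.4 FPKM in SU-DHL-8 with morusinol against 157 ± 10.4 in controls. PSMD1 averaged 10.6 ± 0.27 against 17.0 ± 0.44 FPKM in Farage and 7.11 ± 0.14 against 15.3 ± 0.83 FPKM in SU-DHL-8. With the 3 other scalings 20 to 21 subunits fell in Farage and 27 to 30 in SU-DHL-8, with at most 1 higher. Without Farage control replicate 3, 20 fell and 1 rose in Farage. In SU-DHL-8, 28 to 29 fell when any 1 library was left out. PSMA1 lost its SU-DHL-8 call under 14 alternatives and PSMD4 under 13.

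Of 11 listed genes for processing and partners of NFE2L1, 3 rose and 4 fell in Farage. In SU-DHL-8, 4 rose and 5 fell, and the medians were -0.13 in Farage and -0.10 in SU-DHL-8. Over all tested genes 21.9% rose and 21.2% fell in Farage, and 25.1% rose and 21.6% fell in SU-DHL-8. The SU-DHL-8 count of 4 that rose was 2 without SU-DHL-8 morusinol replicate 3, and also 2 without control replicate 1 or 2; in Farage 2 fell after rescaling to TPM. NGLY1, which strips the sugars of NFE2L1, fell by 0.50 in Farage and by 0.16 in SU-DHL-8 on the log2 scale, the second lost when scaled to protein-coding genes (adjusted p = 0.145). VCP, the ATPase that pulls NFE2L1 from the membrane, fell by 0.59 in SU-DHL-8 (limma adjusted p = 5.69e-06); its Farage value of -0.18 (adjusted p = 0.0211) lost its call under 8 alternatives, among them those without Farage morusinol replicate 3 and without Farage control replicate 1 or 3 (adjusted p between 0.0696 and 0.0744). DDI2, the protease that cuts NFE2L1, gave -0.18 and -0.16, calls lost under 3 alternatives in Farage and 2 in SU-DHL-8, and its relative DDI1 did not pass in either line. OGT rose in both lines, by 0.63 in Farage and 1.19 in SU-DHL-8. The small MAF partners differed: MAFG averaged 19.3 ± 0.69 FPKM with morusinol in Farage against 7.57 ± 0.12, and 11.3 ± 0.40 FPKM in SU-DHL-8 with morusinol against 10.1 ± 0.58, and its fold change was higher in Farage (difference 1.09, limma adjusted p = 1.17e-06). NFE2L2, the cytosolic relative of NFE2L1 that answers oxidative stress, averaged 38.4 ± 0.56 against 21.5 ± 0.53 FPKM in Farage and 20.4 ± 0.45 against 17.1 ± 0.84 FPKM in SU-DHL-8. KEAP1, which holds NFE2L2 down, rose in Farage (0.44) and fell in SU-DHL-8 (-0.63).

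IRE1alpha is also known to degrade other ER-bound mRNAs. Of 10 listed substrates 5 passed the filter, and in each line 2 of them rose and 1 fell, where 21.9% of all tested genes rose and 21.2% fell in Farage and 25.1% rose and 21.6% fell in SU-DHL-8. The count that rose, the count that fell, or both were 1 lower without any single Farage library but control replicate 1, and the count that rose was 1 in SU-DHL-8 without any single SU-DHL-8 library but control replicate 3. With the replicate block 1 rose in each line. BLOC1S1, the best known of them, averaged 5.13 ± 0.31 FPKM with morusinol against 7.14 ± 1.1 in controls in Farage (log2 fold change -0.40, limma adjusted p = 0.0214; 0.0695 without Farage morusinol replicate 2, 0.0813 without Farage control replicate 3 and 0.052 with no filter), and 5.52 ± 0.74 against 6.59 ± 1.05 FPKM in SU-DHL-8, where it did not pass (adjusted p = 0.181).

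**Figure D4:**
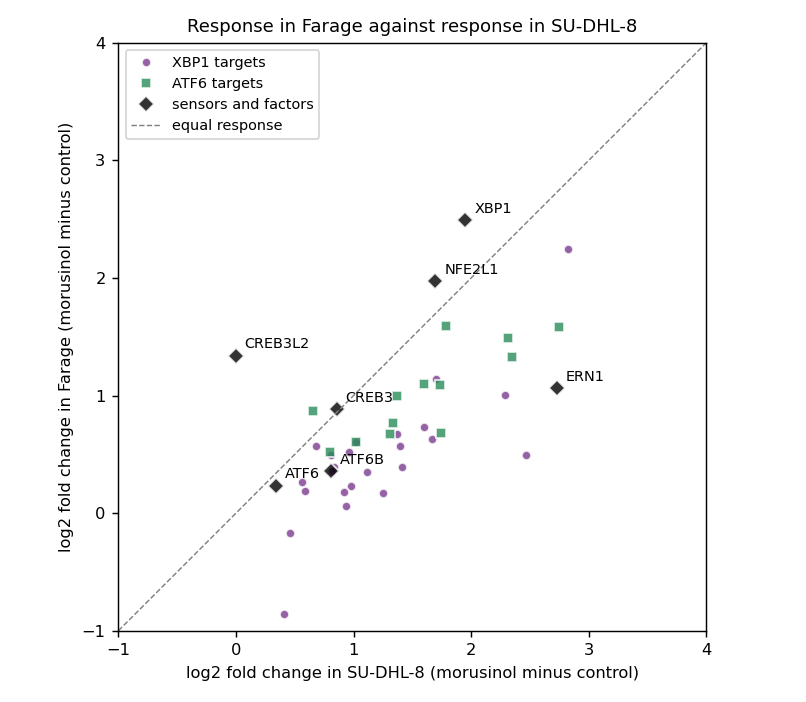
Log2 fold changes of FPKM + 1, morusinol minus control, are plotted for Farage (vertical) against SU-DHL-8 (horizontal) for the 7 genes and for the XBP1 and ATF6 target lists; the dashed line marks an equal response. ERN1 and all 24 XBP1 targets lie below the line, and XBP1 lies above it, at 2.49 in Farage and 1.95 in SU-DHL-8.

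The genes whose log2 levels followed each member most closely over the 12 libraries were found by Pearson's r, given as a description since the points share line and treatment. ERN1 was nearest to RNF185 (0.996), USO1 (0.996) and SSR3 (0.994). XBP1 was nearest to CEBPG, LRRC8D and NR1D2 (0.998 to 0.995), and NFE2L1 to ATF3, KLHL24 and SURF4 (0.996 to 0.992). ATF3, a stress factor, averaged 25.9 ± 0.60 FPKM with morusinol against 1.11 ± 0.16 in controls in Farage and 19.3 ± 0.37 against 1.72 ± 0.077 FPKM in SU-DHL-8. For CREB3L2 the nearest genes were L3MBTL4, STEAP1 and CR1L, which were likewise near 0 in SU-DHL-8.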

How the data were processed

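RNA was measured by sequencing in 12 libraries, 3 in each of 4 groups. The authors deposited FPKM values, 1 column per library; total RNA had gone into a SMARTER mRNA-Seq library kit, per the labels' protocols. Columns were matched to samples by the line, treatment and replicate in their names; the treatment letter n was read as control because the other code spells the drug. No label names the aligner, the annotation or the strand setting. The submitters' processing notes list only the mouse builds GRCm38 and mm10, yet 94.8% of the table's gene identifiers matched human GENCODE release 29 (GRCh38), which gave names, coordinates and overlaps here. Depth was estimated from value steps and exon lengths, reading 2 steps as 1 fragment, and 70.2% to 81.0% of low values fell on a step within 0.02; so the absolute scale is approximate and fragment numbers cover counting error only.

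Genes with at least 1 FPKM in at least 3 libraries were fitted with limma 3.58.1 (R 4.3.3) on log2(FPKM + 1), 1 mean per group over all 12 libraries, with trended and robust empirical Bayes, two-sided, adjusted by Benjamini-Hochberg over all 17574 genes. The fit was tested on simulated data. Alternatives changed the pseudocount, filter, scaling, prior, libraries in the fit, replicate block and each single library; scaling to protein-coding genes was added after seeing the data. Genes named were all members, any gene of lists with up to 12 genes, and up to 4 of longer lists by mean absolute change. The members and lists were chosen with earlier results of these data known, so they are not independent evidence. Of the B lymphocyte markers, 1 is not reported here and is left out of their sum. Figures used Python 3.11.15 and matplotlib 3.10.9.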

Additional observations from a re-analysis of the deposited data

Results flagged for a closer look

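For 5 genes the response to morusinol differed between the lines by the test of the difference itself (log2 fold change in Farage minus that in SU-DHL-8). The difference was -1.67 for ERN1 (-1.665 before rounding to 2 decimals), 0.54 for XBP1 (0.5388), -0.45 for ATF6B (-0.447), 1.34 for CREB3L2 (1.3438) and 0.28 for NFE2L1 (0.2757). ERN1 had 2.31 ± 0.15 FPKM in Farage with morusinol and 0.587 ± 0.022 in Farage controls, and 10.6 ± 0.58 FPKM in SU-DHL-8 with morusinol and 0.758 ± 0.056 in SU-DHL-8 controls (SD, n = 3 each). The CREB3L2 value rests on Farage alone, since the gene was listed at 0 in 5 of the 6 SU-DHL-8 libraries. The ATF6B and NFE2L1 values are the ones that lost their call under some settings. With 34.9% of all tested genes called in this comparison, a call here is common.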

How the results depend on the processing

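Over 35 results for single members and 21 alternative settings, 726 values were recomputed. Of these, 707 stayed on their side of the threshold, 8 lost their call and 11 gained one. Among values called in the main fit or in the alternative, 0 changed direction. Some values called in neither did change direction, such as CREB3 between controls (-0.0934 to 0.0692). The count of members called stayed at 7 in Farage and 6 in SU-DHL-8 under each setting; it was 4 to 5 for the difference between responses, 3 to 4 between controls and 5 to 6 between treated cells. ERN1 between controls gained a call with log2(FPKM + 0.1) (adjusted p = 0.0178), with median-of-ratios scaling (0.04) and with no trend (0.0374). A stricter filter, at least 5 FPKM in at least 3 libraries, tested 8908 genes, so calls over all genes dropped to 7043 between controls, from 11271, and to 7033 between treated cells, from 11441. Leaving out 1 library gave 6494 to 7524 genes called in Farage, 7268 to 8253 in SU-DHL-8, 5303 to 5871 for the difference, 10315 to 11223 between controls and 10655 to 11349 between treated cells.

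Rescaling to TPM moved the median log2 difference of all genes by 0.104 between controls and 0.195 between treated cells. It moved the share of calls that were higher in Farage to 60.2%, from 49.6%, for the difference between responses (60.7% with median-of-ratios scaling), and to 62.4%, from 50.7%, between treated cells. Same-numbered treated and control libraries did not deviate together (correlations -0.079 to 0.033) more than differently numbered ones (-0.096 to 0.115). With 3 libraries in a group this cannot show whether they were prepared in pairs. The main fit did not pair them. With the replicate block, 7 members were called in Farage, 6 in SU-DHL-8 and 5 for the difference, with 6853 genes called in Farage and 7619 in SU-DHL-8. The blocks lay within a line, so between lines this fit compared replicate 1 baselines rather than group means. It called 4 members between controls and 5 between treated cells. For CREB3L2 in SU-DHL-8, about 1 fragment was found in 6 libraries. The SU-DHL-8 control libraries were estimated at 14.2 to 15.2 M fragments. Farage controls, at 16.6 to 19.0 M fragments, held about 418 to 485 CREB3L2 fragments each.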
